A study of Homo sapiens with 8 samples.

Results

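The genes described here are 46 genes of the ATF4 stress response and the unfolded protein response, GDF15 among them, followed in A375 melanoma cells with and without CD10 overexpression. They were chosen by name, with earlier results of these data known. Every array probe whose symbol in the platform annotation is one of the 46 was taken, whatever its signal. Of these genes, 45 had at least 1 probe, 59 of the 47322 probes on the array in all, and HERPUD1 had no probe under that symbol in the annotation used here. Of the 45 genes, 39 had a probe detected on at least 1 array and were tested.

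Cells sense trouble in protein production in several ways that meet at the same switch. The kinases PERK, encoded by EIF2AK3, and GCN2, encoded by EIF2AK4, respond to misfolded protein in the endoplasmic reticulum (ER) and to lack of amino acids, and phosphorylate the translation factor eIF2. General translation then slows while the mRNA of ATF4 is translated more, and ATF4 turns on genes for amino acid synthesis, tRNA charging, feedback control and secreted stress signals such as GDF15. The ER has a pair of further sensors: IRE1, encoded by ERN1, splices the XBP1 mRNA, and ATF6 is cut to release a transcription factor, and both raise ER chaperones and the disposal of misfolded ER proteins. Because ATF4, ATF6 and XBP1 are controlled at translation, cleavage and splicing, signals that these arrays do not read, an mRNA level says little about how active they are.

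CD10-A375 cells carry the human CD10 open reading frame in the expression vector pCXN2.1 (+) and were sorted by flow cytometry for surface CD10, mock-A375 cells carry the empty vector, and both were selected with G418. A375 is an established human melanoma line, and each group was measured on 4 Illumina HumanHT-12 v4 bead arrays. The sources describe 1 transfected population per group and the sort for the CD10 cells alone, so the p-values rest on variation among cultures of those populations, and CD10, transfection and sorting cannot be told apart. Between 15977 and 16937 probes per array were detected in CD10-A375 and between 15930 and 16709 in mock-A375, and no array detected any of the 4 probes of MME, the gene of CD10, whose places in the transcript are not given here, so that the labels could not be checked with them. Log2 signals of all tested probes correlated at 0.9907 to 0.9933 within a group and at 0.9621 to 0.9675 between groups.

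Levels below are log2 signals after background correction and quantile normalization, and a log2 fold change is CD10-A375 minus mock-A375 with its standard error (SE). An offset of 16 was added before the log, so the change of dim genes is understated. Each gene stands for its brightest tested probe, and an adjusted p is limma's, after Benjamini-Hochberg adjustment over 11303 genes, with 0.05 as the threshold. A probe counts as detected at a detection p of 0.01 or less.

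Some markers of cell types differed between the groups as well. Of the melanocyte lineage markers, SOX10 and MITF were detected on all 8 arrays, whereas PMEL, MLANA, TYR, TYRP1 and S100B were not detected on any. SOX10 was higher in CD10-A375 (log2 fold change 0.53, adjusted p = 2.27e-06), whereas MITF did not pass the test (0.14, adjusted p = 0.303). The summed signal of this list, most of it from SOX10, ran from 5585.8 to 7228.6 in CD10-A375 and from 3679.5 to 4851.5 in mock-A375. The dedifferentiated melanoma list summed to 1302.5 to 1643.6 in CD10-A375 and 1307.3 to 1583.5 in mock-A375. FOSL1 was higher (1.44), AXL and NGFR were lower (-0.21 and -0.66), and SOX9 was not detected. The groups overlapped for the brightest AXL probe but not for its other probe (-0.31), and NGFR was detected on 3 mock-A375 arrays alone. Of the leukocyte list, PTPRC and CD3E were not detected. LYZ passed the test with its brightest probe (1.67), but its second tested probe gave 0.45 with overlapping groups and did not pass. CD14 was detected without passing (0.14, adjusted p = 0.452). The sum of the list ran from 372.5 to 522.0 in CD10-A375 and from 164.1 to 217.9 in mock-A375. Of the fibroblast list, COL1A1, COL3A1 and DCN were not detected, PDGFRB was detected on all 8 arrays without passing the test, and COL1A2 and LUM were detected on 1 and 2 mock-A375 arrays alone and were lower in CD10-A375 (-0.76 and -0.92), the sum running from 138.3 to 176.0 in CD10-A375 and from 215.0 to 265.2 in mock-A375. Of the keratinocyte list, KRT5, KRT14 and KRT1 were not detected. KRT10 was detected on all 8 arrays and was higher (0.23), with overlapping groups. The sum of this list ran from 2643.6 to 3540.7 in CD10-A375 and from 2547.0 to 2813.9 in mock-A375. The part of these genes in the results was not tested.

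Of the 39 tested members, 14 passed the test as higher in CD10-A375 and 11 as lower, and 14 did not pass. Over all 11303 genes, 20.3% passed as higher and 22.7% as lower. With limma the members' shares lay above that background, the lower share by little. The members were chosen with earlier results of these data known, so the comparison is a description and no test of the set. The median log2 fold change was 0.09 over the members and -0.03 over all genes tested, with called members in both directions. The lower calls were led by GDF15, STC2, ATF3, TRIB3, CEBPG and MTHFD2, and the higher ones by VLDLR, EDEM1, AARS, CRELD2 and XBP1. Enzymes of amino acid supply and tRNA charging were called in both directions. ASNS, SARS and MTHFD2 were lower, and PHGDH, AARS and WARS were higher. Of the 25 members called, 23 did not overlap between the groups, the exceptions being ATF5 and PDIA4. Over all genes, 40% did not overlap, and of all genes called by limma 85.9% did not. The SAM test named in the study's methods was run on the same values. At the same threshold, 8 of the 39 tested members passed, all of them among the 25. VLDLR and EDEM1 were higher, and GDF15, STC2, ATF3, TRIB3, CEBPG and MTHFD2 were lower. Over all genes, SAM called 9.25% higher and 8.38% lower, so the members' higher share lay below that background and their lower share above it.

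**Figure D1:**
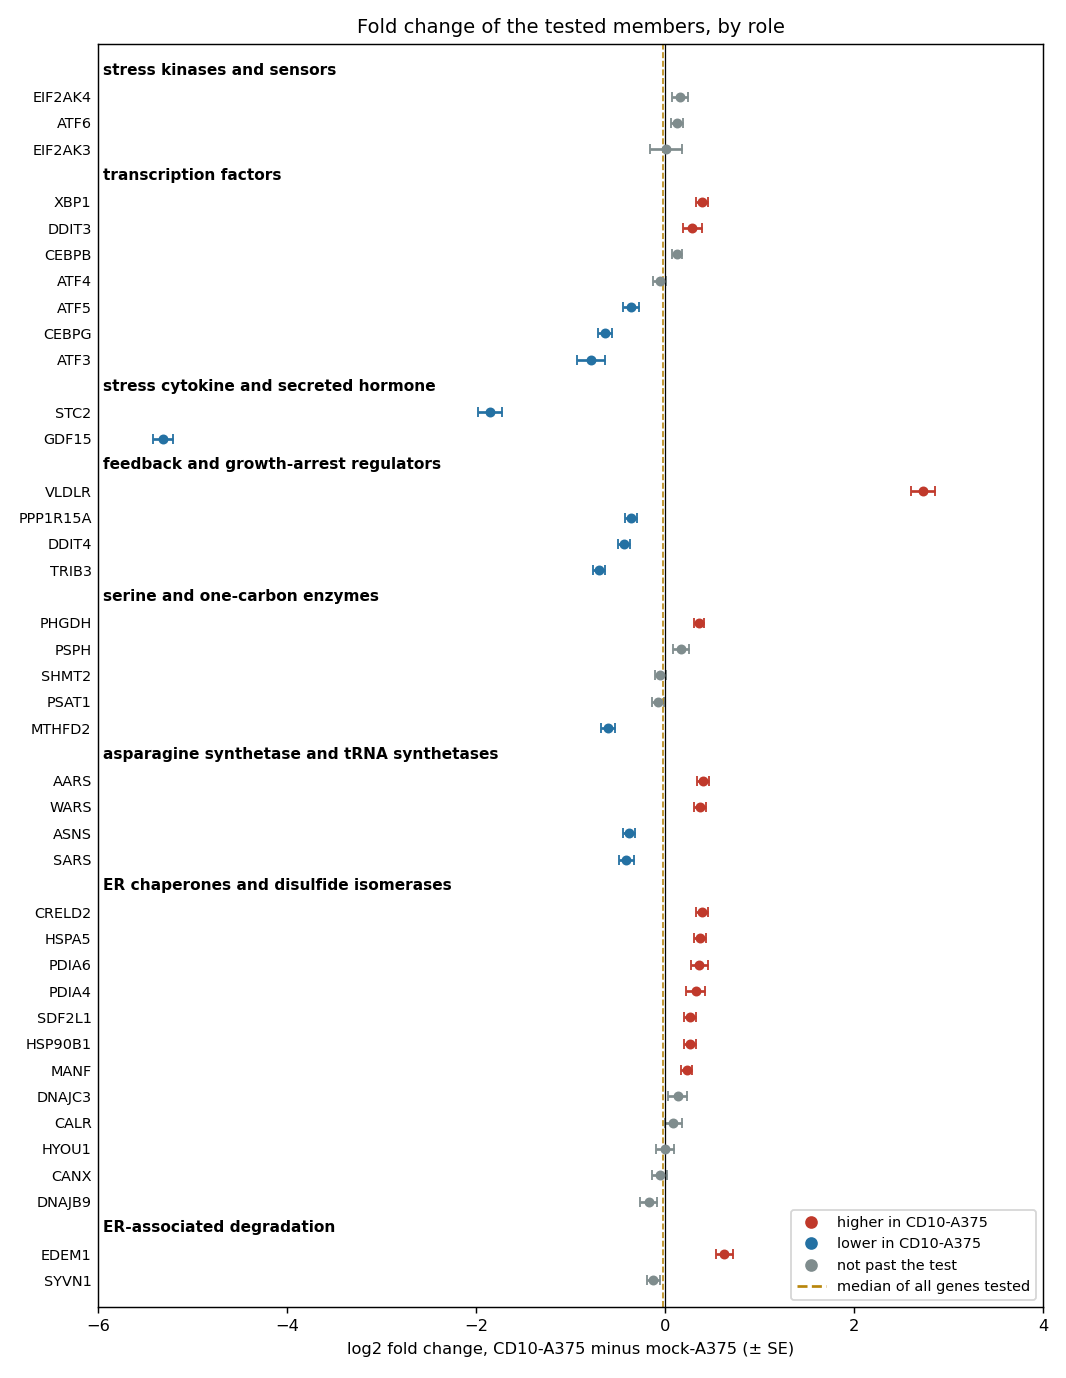
Log2 fold change, CD10-A375 minus mock-A375 (x axis), of the 39 tested members, grouped by role. Points are the fitted values, bars are ± SE (4 arrays per group), colours give the result of the limma test and the dashed line is the median of all 11303 genes. GDF15 at -5.31 and VLDLR at 2.73 lie at the far ends, and 7 of the 12 ER chaperones were called, all of them higher. Over all genes, 20.3% were called higher and 22.7% lower.

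Sequences at the start sites were searched for exact matches to elements that regulators of these genes are known to bind. A copy with a changed letter, or outside the window searched, is missed. RefSeq promoters of build GRCh38.p14, each of 300 bases from 250 before to 50 after an annotated start, were found for 41 of the 46 members. The ER stress element, bound by ATF6 together with NF-Y, was searched on both strands as CCAAT, 9 free bases and CCACG. It was found in 25 of 27305 genes with a promoter, or 0.0916%, and in 7 members. Of the 7, XBP1, HSPA5, HSP90B1, PDIA6 and CRELD2 were among the 14 genes higher in CD10-A375, CALR and CANX did not pass the test, and none of the 11 lower genes had it. Many of these genes are those in which the element is known, so its presence in them is no result of the arrays. The stretches that hold it are given here so that they can be set beside the fold changes. The fixed letters are in capitals (CGTGG and ATTGG where the element lies on the opposite strand). The place of the first capital is counted from an annotated start, of which some genes have several. The CANX element also lies at -9 and -189 from other starts of that gene.
XBP1, chr22:28800587-28800637, - strand, first base at -52: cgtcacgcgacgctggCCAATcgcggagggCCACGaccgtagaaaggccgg
HSPA5, chr9:125241375-125241425, - strand, first base at -66: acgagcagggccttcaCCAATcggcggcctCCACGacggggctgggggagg
HSP90B1, chr12:103930200-103930250, + strand, first base at -194: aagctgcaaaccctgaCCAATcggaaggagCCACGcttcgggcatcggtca
HSP90B1, chr12:103930305-103930355, + strand, first base at -89: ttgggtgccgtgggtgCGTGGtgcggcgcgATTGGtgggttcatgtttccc
CALR, chr19:12938368-12938418, + strand, first base at -225: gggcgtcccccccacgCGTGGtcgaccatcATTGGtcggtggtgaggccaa
CANX, chr5:179698762-179698812, + strand, first base at -151: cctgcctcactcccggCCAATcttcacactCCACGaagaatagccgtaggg
PDIA6, chr2:10812837-10812887, - strand, first base at -86: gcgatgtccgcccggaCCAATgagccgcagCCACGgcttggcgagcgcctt
CRELD2, chr22:49918538-49918588, + strand, first base at -80: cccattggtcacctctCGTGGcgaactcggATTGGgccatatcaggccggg

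The composite element of C/EBP and ATF proteins, to which ATF4 binds with a C/EBP partner, was searched as TGATGNAA on both strands. It was found in 4.46% of all genes with a promoter and in 5 members. The members were chosen as genes of the ATF4 response, so its presence in them is no result of the arrays. ATF3, CEBPG and ASNS were lower in CD10-A375, AARS was higher and CHAC1 was not detected. The matches are shown with the element in capitals, reversed and complemented in AARS and CHAC1.
ATF3, chr1:212565200-212565239, + strand, first base at -191: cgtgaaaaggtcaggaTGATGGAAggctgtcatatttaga
CEBPG, chr19:33374055-33374094, + strand, first base at -42: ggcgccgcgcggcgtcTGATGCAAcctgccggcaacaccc
CHAC1, chr15:40953246-40953285, + strand, first base at -209: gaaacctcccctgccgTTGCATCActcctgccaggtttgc
ASNS, chr7:97872453-97872492, - strand, first base at -68: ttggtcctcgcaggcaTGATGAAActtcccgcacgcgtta
AARS, chr16:70289670-70289709, - strand, first base at -187: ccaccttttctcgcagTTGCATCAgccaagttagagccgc

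The XBP1 element TGACGTGG was found in 0.927% of all genes and, among members, in HYOU1, which did not pass the test. The cyclic AMP response element TGACGTCA was found in 2.25% of all genes and, among members, in PPP1R15A, which was lower. None of these elements was found in the windows of STC2, TRIB3 and VLDLR, nor in that of GDF15, the member with the largest difference, which is given whole. A match or its absence in such a window is a description of letters and not of binding.
GDF15, chr19:18385908-18386207, + strand: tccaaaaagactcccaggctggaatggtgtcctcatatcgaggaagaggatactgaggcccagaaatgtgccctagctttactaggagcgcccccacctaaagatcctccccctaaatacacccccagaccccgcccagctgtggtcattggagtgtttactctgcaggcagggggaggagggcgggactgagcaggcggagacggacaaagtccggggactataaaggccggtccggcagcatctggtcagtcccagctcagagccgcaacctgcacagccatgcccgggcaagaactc

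GDF15 was the member that differed most and had the lowest fold change of all 11303 genes. It encodes growth differentiation factor 15, a secreted TGF-beta family cytokine released by stressed cells that acts through the receptor GFRAL in the hindbrain. In these bulk cultures, fewer expressing cells and less RNA per cell cannot be told apart. Its deposited signals, before any normalization, were 2.06, 24.2, 14.5 and 13.8 on the CD10-A375 arrays, against 1369, 1234, 1459 and 1284 on the mock-A375 arrays. The probe was detected on none of the 4 CD10-A375 arrays and on all 4 mock-A375 arrays. The log2 signals were 4.77, 5.31, 5.09 and 5.07 in CD10-A375 and 10.38, 10.35, 10.43 and 10.32 in mock-A375. Since the CD10-A375 level is not above background, only a bound can be given: GDF15 was at least 25.4-fold lower in CD10-A375, taking the lowest detected signal of each array as the floor. The fitted log2 fold change was -5.31 (SE 0.11, adjusted p = 1.505e-17). STC2, which encodes the secreted glycoprotein hormone stanniocalcin 2, had deposited signals of 39.3, 67.9, 41.1 and 37.6 in CD10-A375 and 237.8, 190.6, 215.5 and 189.7 in mock-A375. All 8 arrays detected it, and the highest CD10-A375 array lay well below the lowest mock-A375 array. Its log2 signal averaged 5.93 ± 0.23 in CD10-A375 and 7.78 ± 0.11 in mock-A375 (SD, n = 4 each), and its log2 fold change was -1.85 (SE 0.13, adjusted p = 1.08e-09).

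**Figure D2:**
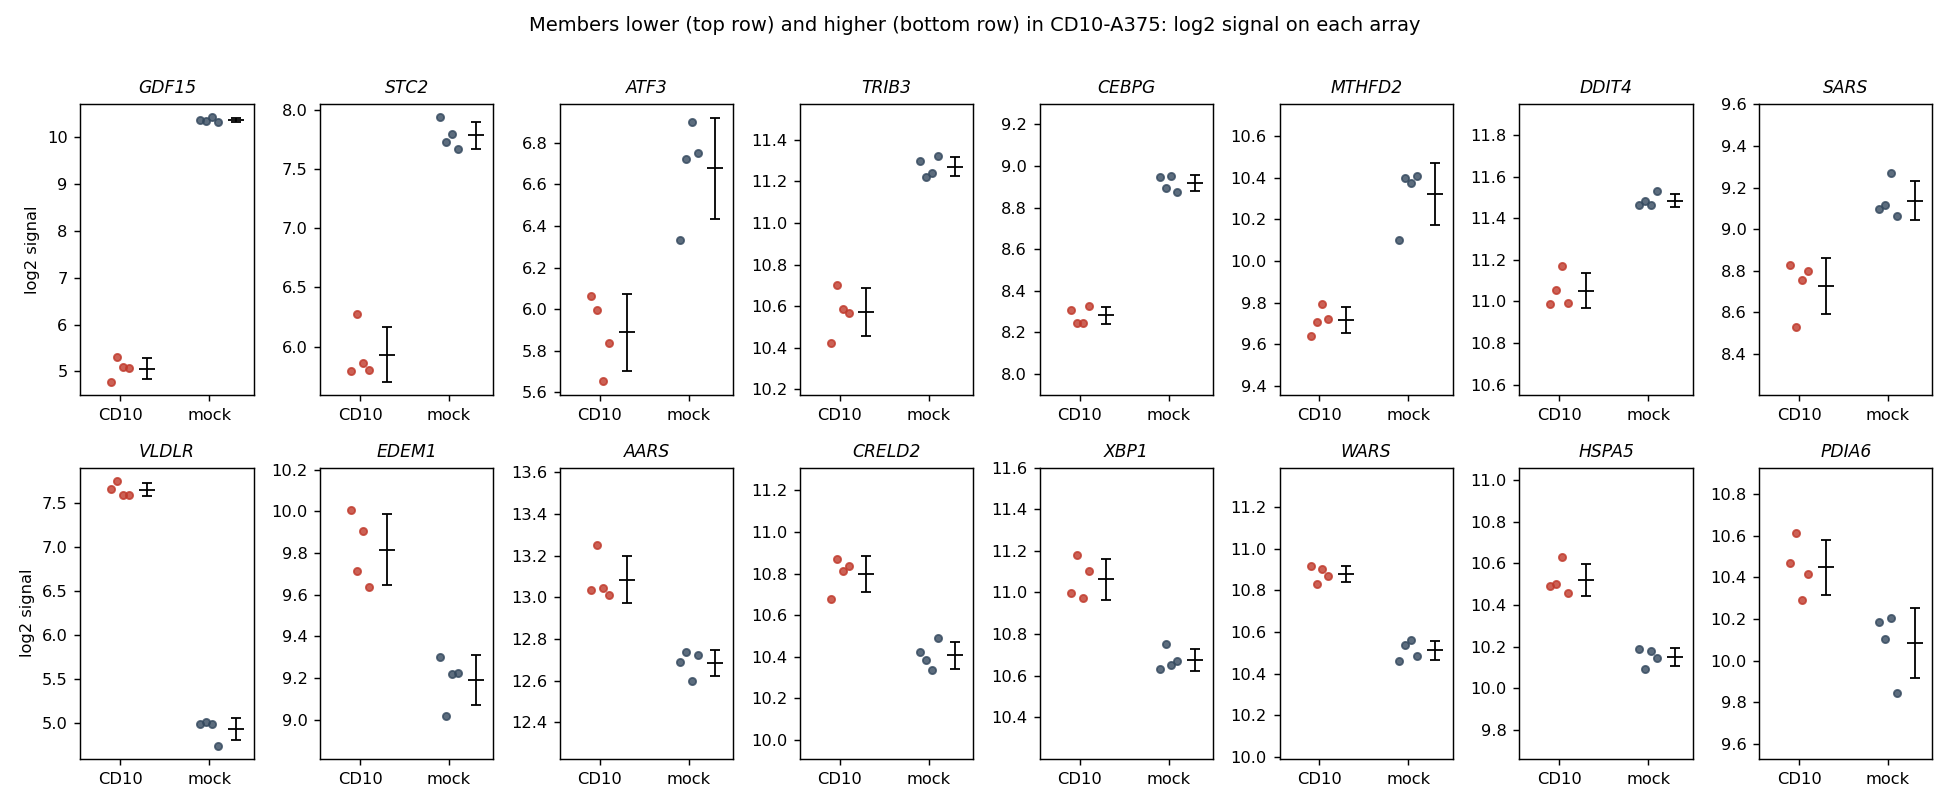
Log2 signal (y axis, a separate range in each panel) on each of the 4 CD10-A375 arrays (red, left) and 4 mock-A375 arrays (dark, right), for the 8 members with the largest decrease (top row) and the 8 with the largest increase (bottom row) among those past the test. Black bars are the mean ± SD. The groups do not overlap in any of the 16 panels, which were chosen by their size of change. Of all genes called by limma 85.9% do not overlap, and of all genes tested 40%. The gap is widest for GDF15, at 5.06 ± 0.22 in CD10-A375 against 10.37 ± 0.05 in mock-A375.

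The sensors at the top of the pathway did not pass the test. EIF2AK3 was close to background, with log2 signals of 5.49, 6.03, 5.92 and 5.54 in CD10-A375 and 5.82, 5.78, 5.82 and 5.51 in mock-A375. It was detected on 2 CD10-A375 arrays and 3 mock-A375 arrays, the groups overlapped throughout, and its log2 fold change was 0.01 (SE 0.17, adjusted p = 0.957). ATF6 had 10.57, 10.50, 10.61 and 10.44 in CD10-A375 and 10.42, 10.32, 10.50 and 10.37 in mock-A375. Its log2 fold change was 0.13 (SE 0.07, adjusted p = 0.132), with overlapping groups. EIF2AK4 had a log2 fold change of 0.16 (SE 0.09, adjusted p = 0.155). ERN1 had log2 signals of 4.42, 4.61, 4.51 and 4.53 in CD10-A375 and 4.57, 4.54, 4.54 and 4.47 in mock-A375. None of these was detected, the lowest detection p being 0.678.

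ATF4 itself did not pass the test with any of its 3 probes. The brightest probe had log2 signals of 12.56, 12.68, 12.68 and 12.64 in CD10-A375 and 12.56, 12.68, 12.88 and 12.68 in mock-A375, which overlap nearly completely, and a log2 fold change of -0.06 (SE 0.07, adjusted p = 0.498). The 2 dimmer probes had log2 fold changes of -0.14 (SE 0.12) and 0.21 (SE 0.13). Their signs differ, and their groups overlap as well. ATF4 has 4 named pseudogenes, whose transcripts the probes might also read.

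The factors around ATF4 went different ways. XBP1, the transcription factor of the IRE1 branch, had log2 signals of 10.9954, 11.18, 10.97 and 11.10 in CD10-A375 and 10.63, 10.75, 10.65 and 10.67 in mock-A375. Every CD10-A375 array was above every mock-A375 array, and the log2 fold change was 0.39 (SE 0.07, adjusted p = 9.71e-05). The second XBP1 probe gave 10.89, 10.80, 10.80 and 10.74 in CD10-A375 and 10.38, 10.22, 10.38 and 10.35 in mock-A375, with a log2 fold change of 0.48 (SE 0.06). Whether the probes read the spliced or the unspliced mRNA is not given in the sources used here. DDIT3, which encodes CHOP, a factor linked to cell death in prolonged stress, had 7.67, 7.38, 7.54 and 7.50 in CD10-A375 and 7.18, 7.33, 7.27 and 7.16 in mock-A375. The groups were separated by little, and the log2 fold change of 0.29 (SE 0.10, adjusted p = 0.026) did not pass without CD10-A375 replicate 1 (adjusted p = 0.0843), without mock-A375 replicate 1 (adjusted p = 0.0596), without mock-A375 replicate 4 (adjusted p = 0.0645) or without normalization between arrays (adjusted p = 0.128).

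ATF3, ATF5 and CEBPG were lower. ATF3 encodes a stress-induced factor of the same family and was read by 1 of its 3 probes, with log2 signals of 6.07, 6.00, 5.65 and 5.84 in CD10-A375 and 6.33, 6.72, 6.90 and 6.75 in mock-A375. The groups did not overlap, and its log2 fold change was -0.79 (SE 0.15, adjusted p = 0.000311). CEBPG, whose product forms dimers with ATF4, had 8.31, 8.25, 8.25 and 8.33 in CD10-A375 and 8.95, 8.89, 8.95 and 8.87 in mock-A375. The arrays of each group lay close together and far from those of the other, with a log2 fold change of -0.64 (SE 0.07, adjusted p = 1.49e-06). ATF5, a further factor of the ATF4 family, had a log2 fold change of -0.36 (adjusted p = 0.00223), with 1 mock-A375 array at 9.64 among CD10-A375 arrays of 9.44 to 9.66. CEBPB had a log2 fold change of 0.12 and did not pass (adjusted p = 0.0763), although its groups did not overlap. NUPR1 was not detected with either of its probes.

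**Figure D3:**
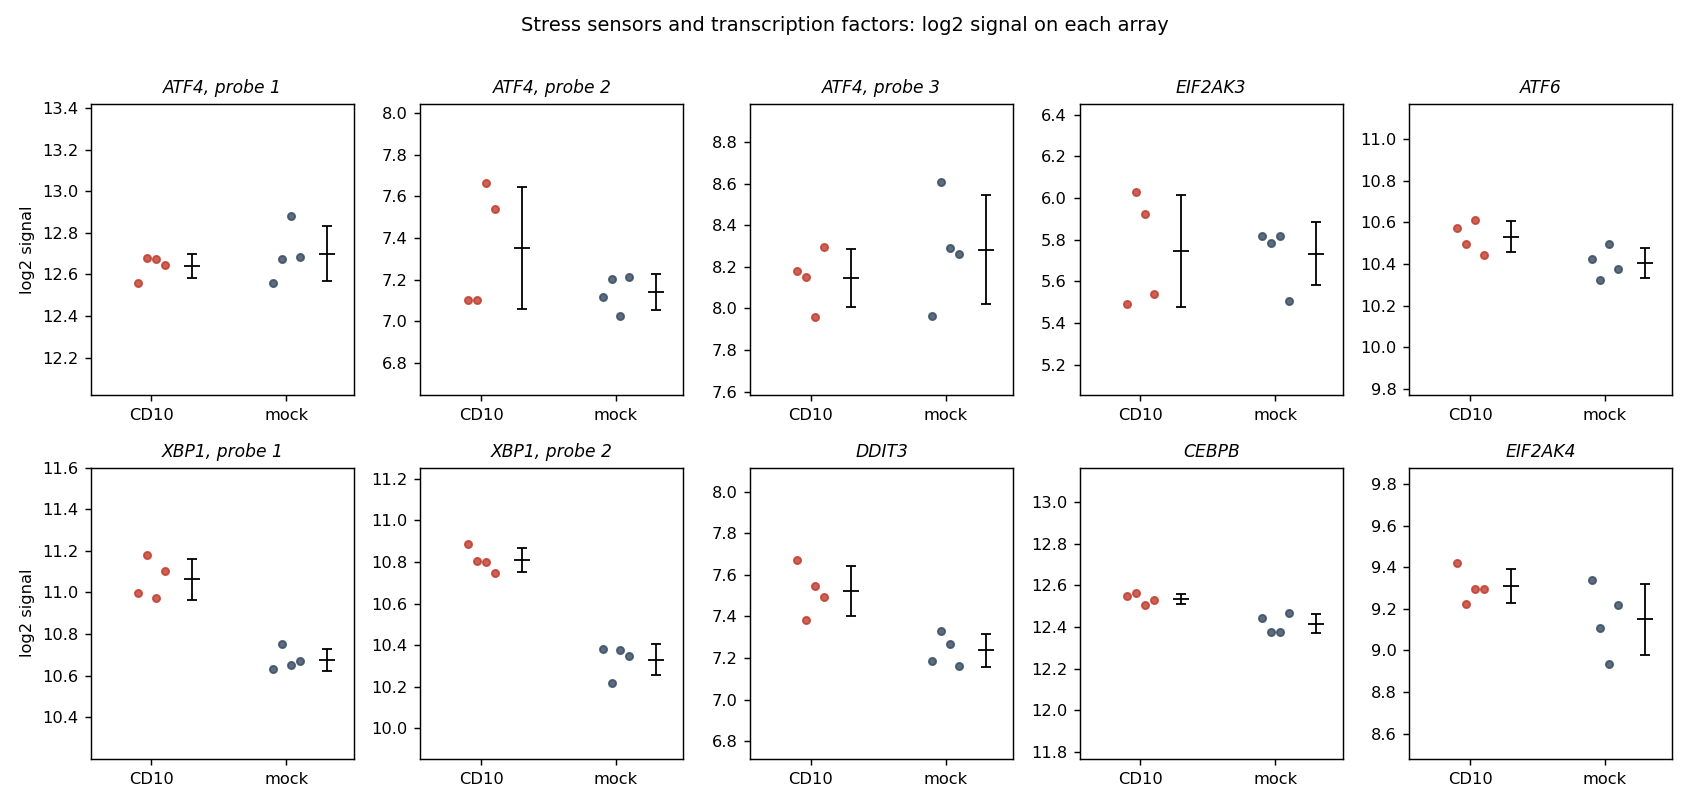
Log2 signal (y axis, a separate range in each panel) of 3 ATF4 probes, 2 XBP1 probes and the probes of EIF2AK3, ATF6, DDIT3, CEBPB and EIF2AK4 on the CD10-A375 arrays (red, left) and the mock-A375 arrays (dark, right), 4 each. Black bars are the mean ± SD. Both XBP1 probes, DDIT3 and CEBPB separate the groups, although CEBPB did not pass the limma test. The ATF4, EIF2AK3, ATF6 and EIF2AK4 panels overlap. Over all genes tested, 40% do not overlap.

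Of the 4 tested genes shown together as feedback and growth-arrest regulators, TRIB3, DDIT4 and PPP1R15A were lower. VLDLR, a receptor gene placed with them, was higher. Over all genes, 20.3% were called higher and 22.7% lower. TRIB3 encodes a pseudokinase that restrains ATF4 and AKT, and its log2 signals were 10.42, 10.70, 10.59 and 10.57 in CD10-A375 and 11.30, 11.22, 11.24 and 11.32 in mock-A375. All mock-A375 arrays exceeded all CD10-A375 arrays, with a log2 fold change of -0.70 (SE 0.07, adjusted p = 1.16e-07). DDIT4, which encodes the mTORC1 inhibitor REDD1, had 10.99, 11.06, 11.17 and 10.99 in CD10-A375 and 11.46, 11.48, 11.46 and 11.53 in mock-A375. Its groups did not overlap either, and its log2 fold change was -0.43 (SE 0.06, adjusted p = 1.32e-05). PPP1R15A encodes GADD34, which guides the phosphatase that restores eIF2 and so ends the translational block, and its log2 fold change was -0.36 (SE 0.06, adjusted p = 8.69e-05). CHAC1, which encodes a glutathione-degrading enzyme, and SESN2, which encodes a leucine sensor, were not detected on any array.

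VLDLR rose more than any other member. It encodes the very low density lipoprotein receptor. Its deposited signals were 180.2, 222.0, 167.8 and 165.5 in CD10-A375 and 11.49, 11.97, 11.27 and 1.28 in mock-A375. The probe was detected on all 4 CD10-A375 arrays and on none of the mock-A375 arrays, so VLDLR mRNA can be given as at least 3.80-fold higher. The log2 signals were 7.67, 7.76, 7.60 and 7.60 in CD10-A375 and 4.99, 5.01, 4.99 and 4.74 in mock-A375, and the fitted log2 fold change was 2.73 (SE 0.13, adjusted p = 4.59e-12). The second VLDLR probe was not detected on any array.

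Enzymes that ATF4 is known to raise were split as well. In serine synthesis, PHGDH, the first enzyme of the pathway, was higher with a log2 fold change of 0.36 (SE 0.06, adjusted p = 5.8e-05), whereas PSAT1 and PSPH, which catalyse the following steps, had -0.08 and 0.17 and did not pass. Of the mitochondrial one-carbon enzymes, SHMT2 had -0.05 and did not pass, and MTHFD2 was lower. The log2 signals of MTHFD2 were 9.64, 9.71, 9.79 and 9.72 in CD10-A375 and 10.10, 10.40, 10.38 and 10.41 in mock-A375. Replicate 1 of mock-A375 was nearest to the CD10-A375 arrays but still above them, and the log2 fold change was -0.61 (SE 0.08, adjusted p = 4.2e-06). MTHFD2 and PSAT1 have 7 and 4 named pseudogenes, so that a share of their signal may come from elsewhere. XBP1, PSPH, WARS, AARS and HSPA5 have 1 each.

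ASNS, which makes asparagine and is a classic target of the amino acid response, was lower with both of its probes, by log2 fold changes of -0.38 (SE 0.06, adjusted p = 7.15e-05) and -0.44 (SE 0.09). Its groups did not overlap with either probe, and ASNS has 5 named pseudogenes. The 3 tRNA synthetases did not move as 1 group. SARS, which charges serine tRNA, had log2 signals of 8.83, 8.53, 8.75 and 8.80 in CD10-A375 and 9.10, 9.11, 9.27 and 9.06 in mock-A375, and its log2 fold change was -0.41 (SE 0.08, adjusted p = 0.00066). AARS, which charges alanine tRNA, had 13.04, 13.25, 13.04 and 13.01 in CD10-A375 and 12.69, 12.74, 12.60 and 12.72 in mock-A375. Here every CD10-A375 array was above every mock-A375 array, with a log2 fold change of 0.40 (SE 0.06, adjusted p = 4.15e-05). WARS, which charges tryptophan tRNA and is also induced by interferon gamma, had 10.92, 10.83, 10.90 and 10.87 in CD10-A375 and 10.46, 10.54, 10.56 and 10.49 in mock-A375. Its log2 fold change was 0.37 (SE 0.06, adjusted p = 6.48e-05), and its second probe gave 0.35 (SE 0.07). SARS, AARS and WARS are the older symbols of SARS1, AARS1 and WARS1.

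The ER chaperones and disulfide isomerases were the largest group: of 12 tested, 7 were higher, none was lower and 5 did not pass, with a median log2 fold change of 0.24. Over all genes, 20.3% were higher and 22.7% lower. Of 22 other ER chaperones and oxidoreductases, 5 were higher and 4 lower, near those shares, with a median of 0.025. The pattern of the 12 thus did not extend to them. With SAM none of the 7 members passed, their adjusted p running from 0.102 for CRELD2 to 0.274 for MANF. The differences were small, none reaching 0.40. HSPA5 encodes BiP, the main Hsp70 of the ER lumen, and had log2 signals of 10.49, 10.50, 10.63 and 10.46 in CD10-A375 and 10.19, 10.09, 10.18 and 10.15 in mock-A375. The lowest CD10-A375 array was above the highest mock-A375 array, and the log2 fold change was 0.37 (SE 0.06, adjusted p = 0.000141). CRELD2, which encodes a small ER-resident protein with disulfide isomerase activity, had 10.68, 10.87, 10.81 and 10.83 in CD10-A375 and 10.42, 10.38, 10.33 and 10.49 in mock-A375. Its log2 fold change was 0.39 (SE 0.07, adjusted p = 9.77e-05), with no overlap between the groups. The disulfide isomerase gene PDIA6 had 10.47, 10.61, 10.29 and 10.42 in CD10-A375 and 10.19, 10.10, 10.21 and 9.84 in mock-A375. The groups came close without overlapping, and the log2 fold change was 0.36 (SE 0.09, adjusted p = 0.00234).

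HSP90B1, the ER form of Hsp90 (GRP94), had a log2 fold change of 0.26, SDF2L1, a cofactor of BiP, had 0.27, and MANF, a secreted ER protein, had 0.23, each past the test. PDIA4, a further disulfide isomerase gene, had 0.32 (SE 0.10, adjusted p = 0.0182), but its groups overlapped and the call was lost without CD10-A375 replicate 2 (adjusted p = 0.0606) or without mock-A375 replicate 2 (adjusted p = 0.0545). Without normalization between arrays, PDIA4 (adjusted p = 0.0844), SDF2L1 (adjusted p = 0.107) and MANF (adjusted p = 0.113) did not pass. The lectin chaperones CALR and CANX, the Hsp70-like HYOU1 and the co-chaperones DNAJC3 and DNAJB9 did not pass, with log2 fold changes of -0.17 for DNAJB9 to 0.13 for DNAJC3. PDIA3, which is abundant in most cells, was not detected with its single probe, so an undetected probe here cannot be taken as an absent transcript.

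Among the genes for ER-associated degradation, EDEM1 was higher. It encodes a lectin that hands misfolded glycoproteins over for disposal. Its log2 signals were 10.01, 9.71, 9.91 and 9.64 in CD10-A375 and 9.30, 9.02, 9.22 and 9.23 in mock-A375. The groups did not overlap, and the log2 fold change of 0.62 (SE 0.09, adjusted p = 1.56e-05) was the largest increase after VLDLR. SYVN1, which encodes the ubiquitin ligase HRD1, had -0.13 and did not pass (adjusted p = 0.167), and SEL1L, its partner, was not detected.

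Other genes of the same pathways were followed through 88 symbols in 6 lists, of which 79 were tested. Of these, 12 were higher and 17 lower, with a median log2 fold change of 0.005. Over all genes, 20.3% were higher and 22.7% lower, so the shares of the 79 together were close to or below that background. The single lists are short, and none was tested as a set. Among the 13 genes of eIF2 control, 4 were lower and none was higher. EIF2S2, which encodes the beta subunit of eIF2, had a log2 fold change of -0.53, and EIF2B5 and EIF2B1, subunits of its exchange factor eIF2B, had -0.47 and -0.23. Of 8 other tRNA synthetases, 3 were lower (NARS at -0.31, LARS at -0.26 and YARS at -0.17) and none was higher.

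Among 15 other ATF4-linked genes of amino acid supply and redox, 4 were higher and 4 lower, against 20.3% and 22.7% of all genes. SLC7A11, which encodes the cystine importer xCT, had deposited signals of 66.1, 82.1, 69.4 and 67.2 in CD10-A375 and 24.3, 14.8, 27.0 and 18.4 in mock-A375. It was detected on all 4 CD10-A375 arrays and on none of the mock-A375 arrays, and was at least 1.64-fold higher (fitted log2 fold change 1.19, adjusted p = 2.72e-06). The glycine transporter gene SLC6A9 had a log2 fold change of 0.85, and CBS, the first enzyme of transsulfuration, had -0.58. Of 22 other ER chaperones and oxidoreductases, 5 were higher and 4 lower, led by TXNDC11 (0.76) and CRELD1 (0.72) among the higher and WFS1 (-0.57) among the lower. Of 12 other ER-associated degradation genes, UBXN4 was higher (0.37), and DERL1, a subunit of the retrotranslocation channel, and EDEM2 were lower (-0.68 and -0.58). Among 9 other transducers, CREB3L2, an ER-bound factor cut like ATF6, was higher (0.72), as was BCL2L11, which encodes the death effector BIM (0.64), although the groups of BCL2L11 overlapped.

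**Figure D4:**
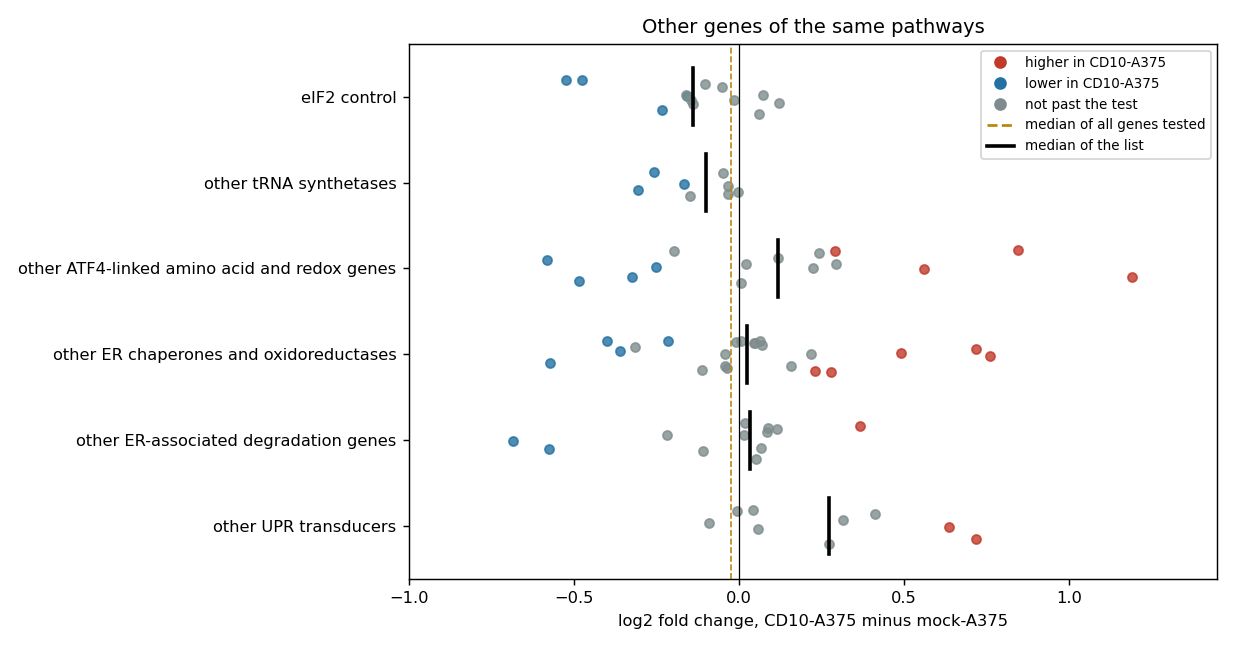
Log2 fold change, CD10-A375 minus mock-A375 (x axis), of 79 further genes of the same pathways in 6 lists. Each point is a gene, coloured by the result of the limma test, black bars are list medians and the dashed line is the median of all genes tested. The lists of eIF2 control and other tRNA synthetases have called genes on the lower side alone, and those of amino acid genes and ER chaperones on both sides. Over all genes, 20.3% were called higher and 22.7% lower. The lists are short and were not tested as sets.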

How the data were processed

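Total RNA of CD10-A375 and mock-A375 cells was hybridised to 4 bead arrays per group. The authors compiled the scans in Bead Studio and deposited background-subtracted intensities, not normalized between arrays, with detection p-values. They also deposited the intensities after average normalization in GenomeStudio, used as an alternative. In limma 3.58.1 (R 4.3.3), normexp, informed by the detection p-values, removed remaining background, quantile normalization followed, and log2 was taken after an offset of 16. Of 47322 probes, the 19550 detected (detection p at or under 0.01) on any array entered a linear model whose variances were moderated along intensity, and tests were two-sided. SAM was rewritten and run over all 70 arrangements of the arrays. Both steps were tested on simulated data.

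The members and lists were chosen with earlier results of these data known, and no p is given for a list. Values on every array are given for GDF15, ATF4, ATF6, XBP1, EIF2AK3, DDIT3 and HSPA5, and for up to 8 members per direction with the largest change past the test. Up to 3 genes past the test are named per wider list. Symbols of 3 members were matched through their newer names. With 4 arrays per group, the number of arrays limits the precision.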

Additional observations from a re-analysis of the deposited data

Results flagged for a closer look

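In the 78 groups of 4 arrays of the tested members, 1 array stood apart from the other 3 by Dixon's criterion in 8 groups, where chance gives about 1 in 20. On the CD10-A375 side, replicate 2 had the highest log2 signal for STC2 (6.27, the others 5.79 to 5.86), SHMT2 (12.27, the others 12.2 to 12.21) and AARS (13.25, the others 13.01 to 13.04). Replicate 1 of CD10-A375 had the highest for HYOU1 (8.37, the others 8.11 to 8.13). On the mock-A375 side, replicate 4 had the lowest log2 signal for EIF2AK3 (5.51, the others 5.78 to 5.82) and VLDLR (4.74, the others 4.98 to 5.01), replicate 2 the lowest for ATF5 (9.64, the others 9.97 to 10) and replicate 1 the lowest for MTHFD2 (10.1, the others 10.38 to 10.41). The calls of STC2, AARS, VLDLR, ATF5 and MTHFD2 held when each array was left out in turn.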

How the results depend on the processing

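GDF15, STC2 and VLDLR kept their calls under all 20 alternatives, and no call of a member changed direction under any of them. Against 14 higher and 11 lower member genes (16 and 12 probes), SAM left 2 higher and 6 lower member genes (2 and 6 probes), and 6 higher and 4 lower genes of the wider lists. An unadjusted p under 0.01 with a fold over 2 or under 0.5 left 1 higher and 2 lower member genes (1 and 2 probes). Over all genes, SAM called 1045 higher and 947 lower, and the threshold on fold 383 and 277. Leaving out each array gave 13 to 14 higher and 11 lower member genes. The replicate numbers did not pair the arrays: deviations of same-numbered arrays correlated at -0.189 to 0.0315, and 1 of 4 numbers had its best partner under the same number. With the replicate block, DDIT3 alone of the members was lost (adjusted p = 0.0513), and all-gene calls were 2137 higher and 2360 lower. The other settings (floor, offsets, filters, trend, mean of probes) changed no member's call, except that without normalization DDIT3, PDIA4, SDF2L1 and MANF did not pass. Members near background, such as EIF2AK3 and ATF3, and those not detected could show large differences only, their signal over background being small.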
